A study of Mus musculus with 15 samples.

Results

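The 8 genes described here encode ion channels, a proton pump subunit and transcription factors of salivary ducts: Scnn1a, Scnn1b and Scnn1g, Cftr, Kcnma1, Foxi1, Ascl3 and Atp6v1b1. They were chosen by gene name and are 8 of the 32479 genes listed with an FPKM value, among 55401 in the count matrix. All 8 passed the filter on low counts, among 18136 genes tested. The study sequenced 15 mouse samples of submandibular gland, one of the major salivary glands. They were 5 from ICR mice without treatment, an outbred stock (control), 5 from NOD/LTJ mice without treatment, a strain prone to autoimmune inflammation of exocrine glands (model), and 5 from NOD/LTJ mice that received SJQYD, an agent known here only by those letters. The genotype of all 15 samples is given as WT. The labels give no age, sex, dose or duration, and do not say how the mice relate to each other, so p-values measure the spread between these samples. Strain and disease cannot be told apart when model is set against control.

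Salivary acini release a fluid rich in sodium and chloride, and the ducts, which let little water through, take up both ions and add potassium and bicarbonate. The epithelial sodium channel, built of the alpha, beta and gamma subunits that Scnn1a, Scnn1b and Scnn1g encode, takes up sodium at the luminal membrane, and Cftr, the chloride channel mutated in cystic fibrosis, takes up chloride beside it. Kcnma1 encodes the pore of the large-conductance potassium channel activated by calcium and voltage. Ionocytes are rare epithelial cells rich in proton pumps and, in airways, in Cftr. Foxi1 is the forkhead factor that specifies them, Ascl3 is a bHLH factor that marks such cells in salivary ducts, and Atp6v1b1 encodes the B1 subunit of the proton pump that they carry.

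Total counts per library ran from 39510018 to 68694263. A count of 3, taken as the floor of detection, was worth 0.02905 to 0.08395 CPM (counts per 1e6 of the TMM-scaled library size), and the members held from 59 counts (Scnn1g) to 1967 counts (Ascl3). Duct keratins were present in every group, with Krt7 at 59.8 ± 15.7, 55.6 ± 6.79 and 51.4 ± 5.00 CPM in control, model and SJQYD (SD, n = 5 each). Of 14 further ionocyte markers 13 were tested, and their summed level ran from 51.3 to 103.7 CPM in control, 64.5 to 93.7 CPM in model and 52.8 to 102.7 CPM in SJQYD libraries. Several libraries stood apart. Transcripts typical of the adjoining parotid gland made up 15.99% of all counts in the library model 3, 6.50% for SJQYD 1 and 4.17% for control 2, and at most 2.11% elsewhere. In SJQYD 3 Xist, which is made from the inactive X chromosome, was at 1.01 CPM, against 162 to 270.2 CPM elsewhere. Mucl2, a secretory product, held 15.5% to 53.8% of the counts of a library, and CPM with TMM factors (used throughout) and by library totals therefore differ. In bulk tissue, fewer cells of a type and less RNA per cell cannot be told apart.

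In the authors' table, on coordinates of GRCm38, Scnn1b and Scnn1g lie close together on the plus strand of chromosome 7, at 121865038 to 121918514 and 121734479 to 121768475, and Ascl3 on its minus strand at 109727465 to 109731726. Chromosome 6 carries Scnn1a (125320659 to 125344933), Cftr (18170687 to 18322767) and Atp6v1b1 (83742990 to 83758855), all on the plus strand. Kcnma1, the longest, lies on the minus strand of chromosome 14 (23289431 to 24014491) and Foxi1 on that of chromosome 11 (34204338 to 34208089).

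Promoters of 4 of the 8 genes are shown, those of the 3 ionocyte genes and of Scnn1b, which gave the 2 highest Pearson correlations with them across libraries (described further on), as the 250 bases before the RefSeq start site in GRCm38.p6. The RefSeq table matched 7 of the 8 genes, and Scnn1a was unmatched. Its start sites are not always those of the authors' table. The window of Kcnma1, 24004206 to 24004455 and not shown, lies inside the span of that gene given above. The window of Atp6v1b1 runs past the gene start given above, 83742990. The letters searched, on both strands, were the forkhead core TGTTTA (or TAAACA), the E-boxes CAGCTG and CACGTG, and the steroid receptor core AGAACA (or TGTTCT). Matches are in capitals. Foxi1 lies at chr11:34208090-34208339 on the minus strand, Ascl3 at chr7:109731733-109731982 on the minus strand, Atp6v1b1 at chr6:83742767-83743016 on the plus strand and Scnn1b at chr7:121864788-121865037 on the plus strand.
Foxi1: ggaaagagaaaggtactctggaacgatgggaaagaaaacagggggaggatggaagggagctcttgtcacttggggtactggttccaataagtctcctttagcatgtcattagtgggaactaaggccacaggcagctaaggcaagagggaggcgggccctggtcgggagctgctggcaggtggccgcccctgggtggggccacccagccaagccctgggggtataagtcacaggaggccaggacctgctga
Ascl3: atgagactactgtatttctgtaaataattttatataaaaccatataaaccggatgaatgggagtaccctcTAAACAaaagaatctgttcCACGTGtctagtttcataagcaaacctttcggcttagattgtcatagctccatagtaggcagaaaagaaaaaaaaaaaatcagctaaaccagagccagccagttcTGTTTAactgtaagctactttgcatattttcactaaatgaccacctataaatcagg
Atp6v1b1: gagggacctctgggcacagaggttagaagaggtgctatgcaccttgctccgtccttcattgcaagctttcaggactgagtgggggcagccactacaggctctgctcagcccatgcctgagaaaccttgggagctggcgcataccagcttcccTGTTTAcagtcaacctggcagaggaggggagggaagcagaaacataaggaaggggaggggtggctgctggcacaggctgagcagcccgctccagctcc
Scnn1b: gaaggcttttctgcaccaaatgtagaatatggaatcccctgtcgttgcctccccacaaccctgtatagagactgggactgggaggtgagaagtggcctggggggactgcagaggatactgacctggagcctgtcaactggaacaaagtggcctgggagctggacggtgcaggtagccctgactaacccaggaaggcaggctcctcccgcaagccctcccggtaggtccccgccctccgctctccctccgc

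Ascl3 held the forkhead core 2 times, with first bases 180 and 56 bases before the start, and CACGTG once, at 161. Atp6v1b1 held the forkhead core once, at 98. None of the searched letters occurred in the windows of Foxi1, Scnn1b, Scnn1g, Cftr and Kcnma1. The forkhead core occurred in 3947 of 32817 promoter windows of this length, near the share of CAGCTG (13.0%) and below that of AGAACA (16.1%), and CACGTG in 6.02%. The windows also differed in base composition, with 34.8% G and C for Ascl3, 76.4% for Cftr and 79.2% for Kcnma1, against a median of 52.4% over all windows. These matches are descriptions of the letters only.

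Compared within a library and per gene length (FPKM, fragments per kilobase and per 1e6 fragments), Ascl3 was the most abundant of the 8 in 15 of 15 libraries, with a median of 24.6 FPKM and a highest value of 39.7. Scnn1b came next in 15 of 15 libraries (median 4.85 FPKM, 2.72 to 7.99). Foxi1 (2.47, 1.15 to 4.55) and Scnn1a (2.39, 1.15 to 3.42) did not keep an order, with Foxi1 higher in 8 of 15 libraries. Atp6v1b1 followed at 1.17 FPKM (0.602 to 1.74), below Scnn1a in 15 of 15. Kcnma1 (0.671, 0.424 to 1.34), Scnn1g (0.654, 0.301 to 1.43) and Cftr (0.568, 0.254 to 2.69) had the lowest medians, and their ranges overlapped each other and that of Atp6v1b1, which was above Cftr in 12 of 15 libraries. The 3 sodium channel subunits kept 1 order in all 15 libraries, beta above alpha above gamma. Beta exceeded gamma 6.10 ± 1.99 times in control, 9.93 ± 3.98 times in model and 10.8 ± 4.47 times in SJQYD libraries (SD, n = 5 each), and these ranges overlapped. Across groups FPKM follow library totals, so the groups are compared on CPM below.

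**Figure D1:**
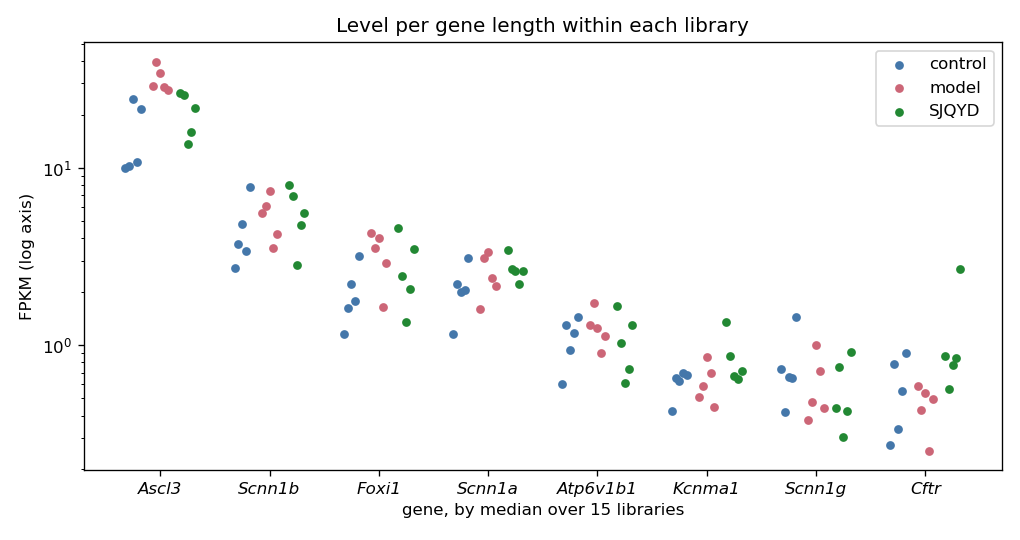
Each point is 1 library, with the gene on the horizontal axis, by median over 15 libraries, and its level in FPKM on a logarithmic vertical axis, coloured by group. Ascl3, with a median of 24.6 FPKM, lies above Scnn1b in every library, and Kcnma1, Scnn1g and Cftr have the lowest medians and overlap, with 1 SJQYD library at 2.69 FPKM for Cftr.

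Model was first set against control, that is NOD/LTJ against ICR glands, both untreated. None of the 8 genes passed the test (edgeR quasi-likelihood test, Benjamini-Hochberg adjusted p under 0.05), where 5.07% of all tested genes did. DESeq2 called 0 of 8 as well, where it called 1779 of the 18136 tested genes and edgeR 920. In edgeR 1 of 8, Kcnma1, had an unadjusted p under 0.05, as had 21.9% of all tested genes. None had groups without overlap, against 5.77% of all tested genes. The median log2 fold change of the 8 genes was -0.25, that of all tested genes 0.03.

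Among sodium channel subunits, Scnn1a stood at 9.26, 10.6, 13.55, 11.2 and 19.1 CPM in control 1 to 5 and at 5.85, 13.3, 13.5, 12.2 and 11.1 CPM in model 1 to 5. Control 5 was the highest and model 1 the lowest, and the other 8 libraries ranged together. The log2 fold change was -0.19 ± 0.22 (SE, edgeR adjusted p = 0.668), with a 95% interval from -0.65 to 0.27. Scnn1b stood at 13.9, 11.25, 21.0, 11.9 and 30.5 CPM in control 1 to 5 and at 13.0, 16.7, 19.1, 11.6 and 13.8 CPM in model 1 to 5. All 5 model libraries lay within the control range (log2 fold change -0.26 ± 0.29 SE, edgeR adjusted p = 0.656). Scnn1g, the least abundant subunit, stood at 4.28, 1.46, 3.25, 2.59 and 6.40 CPM in control 1 to 5 and at 1.01, 1.475, 2.91, 2.65 and 1.65 CPM in model 1 to 5. Means were 3.60 ± 1.87 and 1.94 ± 0.810 CPM (SD, n = 5 each). Control 2 and 4 lay among the model libraries. The log2 fold change of Scnn1g, -0.89 ± 0.44 (SE), missed the threshold (edgeR adjusted p = 0.246), and its 95% interval ran from -1.81 to 0.03.

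Cftr stood at 4.11, 6.99, 4.29, 5.65 and 10.5 CPM in control 1 to 5 and at 4.07, 3.45, 4.06, 2.45 and 4.785 CPM in model 1 to 5. Model 1 and 3 lay just below the lowest control, model 2 and 4 further below, and model 5 among the controls. Its log2 fold change was -0.75 ± 0.46 (SE, edgeR adjusted p = 0.371). Kcnma1 stood at 14.0, 12.8, 17.5, 15.75 and 17.3 CPM in control 1 to 5. In model 1 to 5 it stood at 7.71, 10.35, 14.3, 14.7 and 9.51 CPM. Model 1, 2 and 5 lay below every control, and model 3 and 4 among them. Kcnma1 had a difference of -0.45 ± 0.16 (log2, edgeR adjusted p = 0.115). The call changed with the libraries used, with an adjusted p of 0.0467 without model 4 and 0.0447 without control 2, model 3 and SJQYD 1. With library totals in place of TMM factors the direction of Kcnma1 turned (0.04), where the median of all tested genes was 0.52.

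Among ionocyte genes, Ascl3 stood at 13.6, 8.28, 28.35, 9.97 and 22.6 CPM in control 1 to 5 and at 17.9, 28.7, 23.4, 24.9 and 24.1 CPM in model 1 to 5. The controls were spread widely, by a factor of 3.42, and the model libraries by 1.60. The log2 fold change of Ascl3 was 0.52 ± 0.30 (SE, edgeR adjusted p = 0.329), and 1.07 with library totals (adjusted p = 0.0278), under which the median of all tested genes was itself 0.52. Foxi1 stood at 5.29, 4.45, 8.60, 5.56 and 11.2 CPM in control 1 to 5 and at 9.0, 8.57, 9.24, 4.79 and 8.55 CPM in model 1 to 5. Of the model libraries 4 lay close together and model 4 lay apart, near the lower controls (log2 fold change 0.19 ± 0.29 SE, edgeR adjusted p = 0.754). Atp6v1b1 stood at 5.18, 6.64, 6.87, 6.815 and 9.42 CPM in control 1 to 5 and at 5.09, 7.91, 5.41, 4.93 and 6.19 CPM in model 1 to 5. The groups overlapped (log2 fold change -0.24 ± 0.22 SE, edgeR adjusted p = 0.567). Lymphocyte markers, summed over 6 genes, were at 33.2 to 91.4 CPM in model libraries, 59.5 CPM in control 2 and 1.503 to 10.97 CPM in the other controls. Across all 15 libraries, group differences included, this sum had r = -0.764 and rho = -0.854 with Kcnma1 (log2 scale). With the other members the r of this sum ran from -0.499 (Scnn1g) to -0.0209 (Ascl3). Lymphocyte markers were 1 of several marker lists correlated with the members. Scnn1b and Ascl3 had r = 0.824 and 0.823 with the summed further ionocyte markers, and Scnn1g r = 0.79 with granular duct products. With sublingual products r was negative for all 8 members, from -0.655 (Scnn1b) to -0.365 (Kcnma1). These correlations carry no p-value, and the part of lymphocytes or of other cells in the values of any member was not tested.

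**Figure D2:**
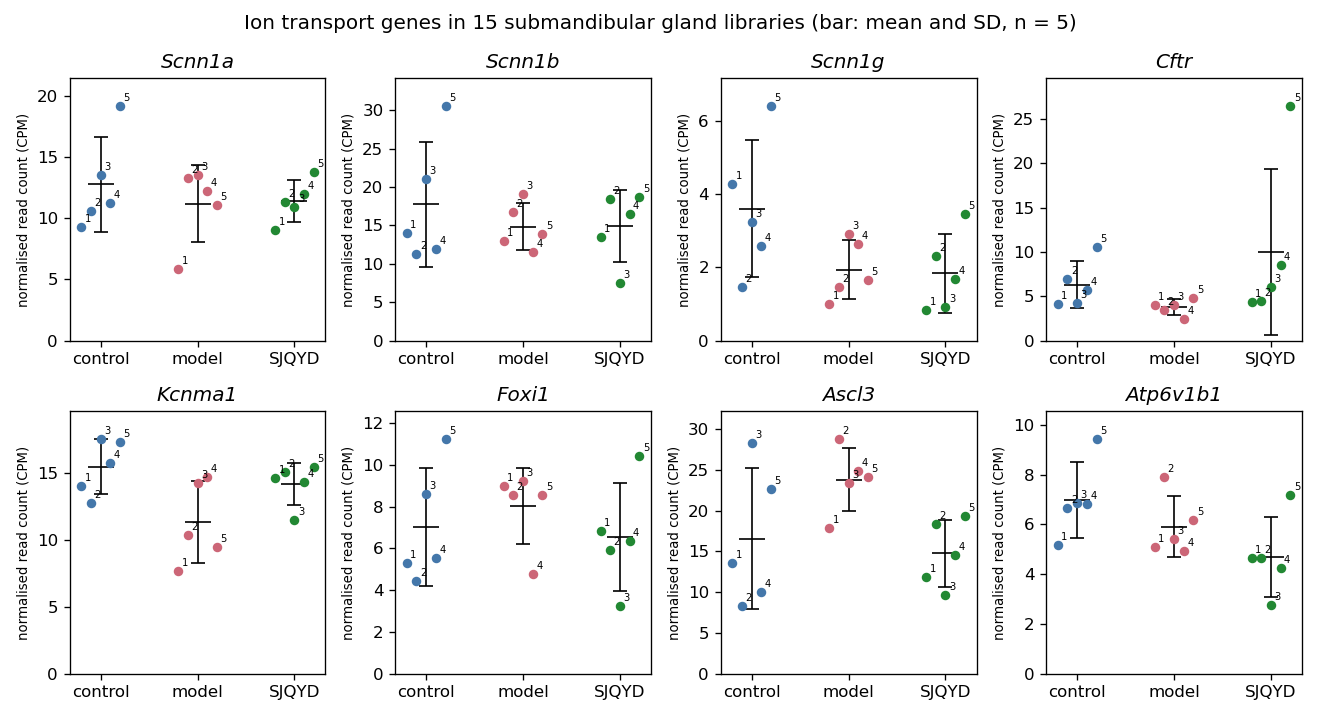
Each panel is 1 gene, with CPM on a vertical axis from 0, points for single libraries marked with their replicate number, and a bar for the mean and SD of 5 libraries. Control 5 is the highest control for 6 of the 8 genes, SJQYD 5 is the highest SJQYD library for all 8, and the groups overlap in every panel.

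SJQYD was next set against model, within the NOD/LTJ strain. None of the 8 genes passed edgeR's test, where 2.75% of all tested genes did. With DESeq2 1 of 8 was called, Cftr (adjusted p = 0.0166), where DESeq2 called 1072 of the 18136 tested genes and edgeR 498. In edgeR 2 of 8, Cftr and Ascl3, had an unadjusted p under 0.05, as had 16.2% of all tested genes. None had groups without overlap, against 5.5% of all tested genes. The model libraries enter both this comparison and the one above, so the opposite signs of 6 genes in the 2 comparisons (all but Scnn1g and Atp6v1b1) rest on shared values.

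Cftr stood at 4.30, 4.49, 6.05, 8.53 and 26.4 CPM in SJQYD 1 to 5, against 2.45 to 4.785 CPM in model libraries. SJQYD 5 lay far above every other library of the series, SJQYD 3 and 4 above every model library, and SJQYD 1 and 2 within the model range. Means were 9.96 ± 9.36 and 3.76 ± 0.873 CPM (SD, n = 5 each). The log2 fold change was 1.40 ± 0.47 (SE, edgeR adjusted p = 0.136), with a 95% interval from 0.40 to 2.40. Without SJQYD 5 it was 0.63 (adjusted p = 0.288). The mean rested on that library, in which all 8 genes were the highest of the SJQYD group. Sublingual products, summed over 4 genes, were at 81.7 CPM in SJQYD 5 and at 16600 to 39720 CPM in the other SJQYD libraries, and adipocyte markers at 167.5 CPM in SJQYD 5, 13.25 to 22.5 CPM in the other SJQYD libraries and 235.6 CPM in model 2, where Cftr was at 3.45 CPM. The part of either in the Cftr value was not tested. Relative to Foxi1 in the same library, a ratio chosen after its values were seen, Cftr stood at 0.19 to 0.77 on the FPKM scale in SJQYD libraries, 0.122 to 0.17 in model and 0.151 to 0.479 in control libraries. All SJQYD libraries lay above all model libraries in this ratio, by a narrow gap (0.17 to 0.19), and both overlapped the controls. No other ratio computed within libraries separated SJQYD from model. The share of gene pairs whose ratio would do so was not computed, so no weight is placed on this separation.

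Ascl3 stood at 11.85, 18.4, 9.69, 14.5 and 19.3 CPM in SJQYD 1 to 5, against 17.9 to 28.7 CPM in the model. SJQYD 1, 3 and 4 lay below every model library. Means were 14.7 ± 4.13 and 23.8 ± 3.88 CPM (SD, n = 5 each), and the log2 fold change, -0.69 ± 0.30 (SE), missed the threshold (edgeR adjusted p = 0.266). Foxi1, at 6.85, 5.92, 3.21, 6.36 and 10.4 CPM in SJQYD 1 to 5, differed from the model by -0.29 ± 0.29 on the log2 scale (edgeR adjusted p = 0.696). Its SJQYD libraries lay both above and below those of the model. Atp6v1b1 stood at 4.66, 4.64, 2.75, 4.25 and 7.20 CPM in SJQYD 1 to 5. SJQYD 1 to 4 lay below the lowest model library, 4.93 CPM, and SJQYD 5 near the highest (log2 fold change -0.33 ± 0.22 SE, edgeR adjusted p = 0.511). For these 3 ionocyte genes SJQYD 3, the library low in Xist, was the lowest of the SJQYD group.

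Scnn1a, at 9.02, 11.3, 10.9, 11.99 and 13.8 CPM in SJQYD 1 to 5, averaged 11.4 ± 1.73 CPM against 11.2 ± 3.14 CPM in the model (SD, n = 5 each). Its log2 fold change was 0.03, with a 95% interval from -0.44 to 0.49. Scnn1b stood at 13.4, 18.5, 7.50, 16.5 and 18.7 CPM in SJQYD 1 to 5, with SJQYD 3 alone below the model range. Its log2 fold change was 0.006 and its 95% interval ran from -0.60 to 0.62. Scnn1g stood at 0.842, 2.30, 0.916, 1.68 and 3.46 CPM in SJQYD 1 to 5, with 2 libraries below and 1 above the model range. Its log2 fold change was -0.08 and its 95% interval ran from -0.9994 to 0.84, the widest of the subunits. All 3 intervals span differences in either direction. Kcnma1 stood at 14.6, 15.1, 11.5, 14.4 and 15.4 CPM in SJQYD 1 to 5, against 7.71 to 14.7 CPM in the model. The SJQYD libraries were close together, 4 of them between 14.4 and 15.4 CPM, and the log2 fold change was 0.33 ± 0.16 (SE, edgeR adjusted p = 0.343).

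The comparison of SJQYD with control differs in strain and treatment at once. None of the 8 genes passed edgeR's test, where 11.1% of all tested genes did. DESeq2 called 0 of 8, where it called 2829 of the 18136 tested genes and edgeR 2017. In edgeR 2 of 8, Scnn1g and Atp6v1b1, had an unadjusted p under 0.05, as had 26.6% of all tested genes. None had groups without overlap, against 10.1% of all tested genes. Atp6v1b1 averaged 4.70 ± 1.60 CPM in SJQYD and 6.99 ± 1.53 CPM in control libraries (SD, n = 5 each). Of the SJQYD libraries 4 lay below every control and SJQYD 5 among them. The log2 fold change was -0.57 ± 0.22 (SE, edgeR adjusted p = 0.106), and without SJQYD 5 it was -0.78 and passed (adjusted p = 0.0296). For Scnn1g the value was -0.97 ± 0.44 on the log2 scale (edgeR adjusted p = 0.165), close to its value in the untreated NOD/LTJ glands, -0.89, against the same controls. The other 6 genes had adjusted p from 0.399 to 0.872. With library totals the log2 fold changes of Scnn1a, Scnn1b, Kcnma1, Foxi1 and Ascl3 in this comparison turned from -0.25 to -0.10 into 0.35 to 0.51, where the median of all tested genes was 0.63.

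**Figure D3:**
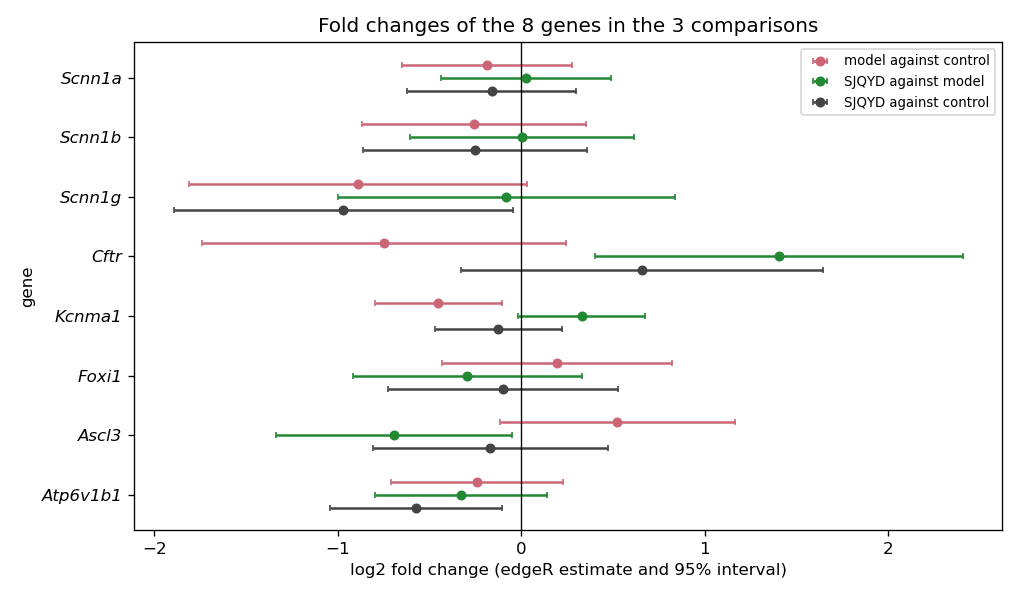
Points give the log2 fold change of each gene, on the vertical axis, for 3 comparisons, with 95% intervals that are not adjusted for the number of genes. Most intervals span 0, and those that do not are Cftr and Ascl3 for SJQYD against model, Kcnma1 for model against control, and Scnn1g and Atp6v1b1 for SJQYD against control, none of which passed after adjustment.

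Libraries of a group differed, and several genes shared the differences. Within groups the SD of log2 CPM was largest for Scnn1g (0.759) and Cftr (0.727) and smallest for Kcnma1 (0.274), against a median of 0.383 over all tested genes. Control 5 was the highest control for 6 genes and control 2 the lowest for 5. SJQYD 5 was the highest of its group for all 8, and SJQYD 3 the lowest for 5, among them Foxi1, Ascl3 and Atp6v1b1. In model libraries the extremes were divided between the genes, with model 3 highest for 4, among them all 3 sodium channel subunits, and model 1 and model 4 lowest for 4 each.

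Correlations were computed for all 28 pairs of members over 15 libraries, on log2 CPM as deviations from the group mean, and tested by permutation of libraries within groups (100000 resamples, two-sided). Of the 28 pairs 27 were positive, against 49.8% of all pairs of tested genes. By Pearson's r 13 pairs passed after adjustment over 28, and by Spearman's rho, computed on ranks within groups, 0 did, with a smallest adjusted p of 0.0597. The share of all gene pairs that would pass was not computed. An r of at least 0.7 occurred in 0.813% of all pairs of tested genes. Among members it occurred for Scnn1b with Foxi1, Ascl3 and Atp6v1b1, and for Foxi1 with Atp6v1b1. By Pearson's r over all 15 libraries the highest pair was Scnn1b with Foxi1, with r = 0.871 (permutation p = 0.00049, adjusted p = 0.0137) and rho = 0.733 (permutation p = 0.00856, adjusted p = 0.0597). Without the 2 farthest libraries, control 5 and SJQYD 3, r was 0.696 with group means taken anew. It was 0.762 with group means kept from all 15 libraries. Within single groups of 5 libraries this r was 0.979 in control, 0.676 in model and 0.852 in SJQYD.

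Scnn1b with Ascl3 followed at r = 0.82 (permutation p = 0.00165, adjusted p = 0.0207) and rho = 0.633 (adjusted p = 0.0795). Without the same 2 libraries, with group means taken anew, its r was 0.819, above that of Scnn1b with Foxi1. Within single groups its r was 0.881 in control, 0.308 in model and 0.924 in SJQYD. By rank the highest pair was Kcnma1 with Ascl3, with rho = 0.767 (permutation p = 0.00471, adjusted p = 0.0597) and r = 0.553 (adjusted p = 0.0289). Foxi1 with its fellow ionocyte gene Atp6v1b1 reached r = 0.792 (permutation p = 0.00416, adjusted p = 0.0289) and rho = 0.667 (adjusted p = 0.0597). Without model 4 and SJQYD 3 its r was 0.682, with group means kept from all 15 libraries. Over the 5 model libraries its r was 0.393. The r of Scnn1b with Atp6v1b1, 0.713 (permutation adjusted p = 0.0289), was 0.322 without control 5 and SJQYD 3, with group means taken anew. It thus rested in part on these libraries. Foxi1 with Ascl3 had r = 0.662 (permutation adjusted p = 0.0425) but rho = 0.267 (adjusted p = 0.468), with r = -0.248 over the 5 model libraries, and Ascl3 with Atp6v1b1 did not pass (r = 0.542, permutation adjusted p = 0.0667). The sodium channel subunits were related to each other at r = 0.691 for Scnn1b with Scnn1g, 0.656 for Scnn1a with Scnn1g and 0.58 for Scnn1a with Scnn1b (permutation adjusted p = 0.0297, 0.0289 and 0.039). Over the 5 model libraries these r were 0.244, 0.764 and 0.468. Scnn1g with Kcnma1 had r = 0.697 and Scnn1a with Kcnma1 r = 0.694 (permutation adjusted p = 0.0207 and 0.0289). Cftr entered no pair that passed. Its r with Atp6v1b1 was 0.626 (permutation adjusted p = 0.11) and its r with Foxi1 0.568 (adjusted p = 0.124). Without SJQYD 5 and control 5 they were 0.157 and 0.154, with group means kept from all 15 libraries.

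All values of a library share its depth, its scaling factor and its mix of tissues. Sublingual products, summed over 4 genes, were at 455 CPM in control 5 and 81.7 CPM in SJQYD 5, where many members were highest, and at 19260 CPM in control 2 and 37860 CPM in SJQYD 3, where many were lowest. They were also low, at 30.6 CPM, in control 3. Their highest sums were 39830 CPM in control 4, which was lowest for 0 members, and 39720 CPM in SJQYD 1, lowest for 3. Control 1, also lowest for 3, was at 1356 CPM. Granular duct products, among them Egf, were at 18570 CPM in control 5 and 7339 to 9504 CPM in the other controls, and in SJQYD libraries at 9838 CPM in SJQYD 5 and 3155 to 6608 CPM in the others. Duct markers, summed over 9 genes, ranged less, from 802 to 1047 CPM in control and from 764 to 851 CPM in SJQYD libraries. The part of these tissues in the shared variation was not tested.

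**Figure D4:**
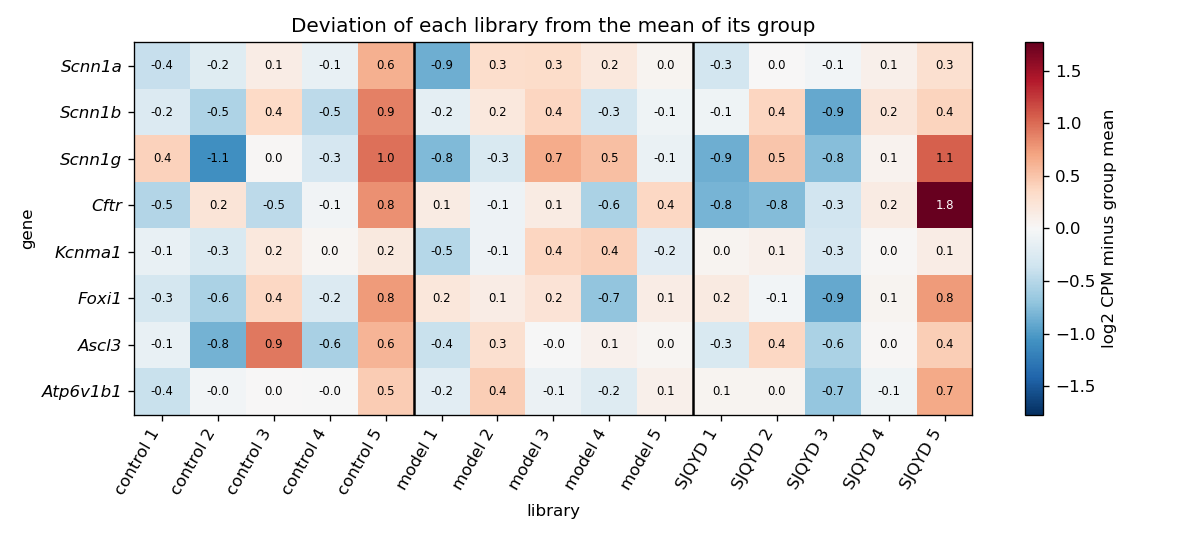
Each cell is the log2 CPM of a gene (vertical axis) in a library (horizontal axis) minus the mean of its group, in red above and in blue below. Control 5 and SJQYD 5 are above their group mean for all 8 genes, and SJQYD 3 is below it for all 8.

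For each member the tested genes most like it over the 15 libraries, by Pearson's r of log2 CPM among 11983 named genes with a mean of at least 1 CPM, were looked up. They are the highest of many and carry no p-value. Scnn1b was most like Scgb1c1, a secretoglobin (r = 0.924, rho = 0.95), Fam189a2 (r = 0.92, rho = 0.921) and Spire1, an actin nucleator (r = 0.915, rho = 0.857). Foxi1 was also most like Fam189a2 (r = 0.856, rho = 0.875), then Wasf3 (0.848) and the junction protein gene Pkp4 (0.845). Scnn1g was most like Trim16 (r = 0.901, rho = 0.893) and Rab20 (0.894). Scnn1a was most like Slc12a2, the basolateral chloride transporter of acini (r = 0.792, rho = 0.839), Sdk2 (0.787) and Tsc22d1 (0.785). Atp6v1b1 was most like the tight junction gene Cgn (r = 0.865, rho = 0.825), Jag1 (0.863) and Ism1 (0.863). Ascl3 was most like Zfp960 (r = 0.867, rho = 0.821), Lgals3 (0.828) and Tmem39b (0.822). Cftr was most like Trim32 (r = 0.858, rho = 0.757), Lmbr1 (0.767) and Macc1 (0.745), and Kcnma1 like Fbxo9 (r = 0.849, rho = 0.771) and Vdac1 (0.822). Without the 2 libraries farthest from the member's median these r lay between 0.489 (Cftr with Macc1) and 0.895 (Scnn1b with Scgb1c1).

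Genes around the 8 members, 109 in all, were taken from 8 lists of channel regulators, steroid targets, sodium, chloride, bicarbonate and potassium transport, proton pump subunits, ionocytes and ducts. Of these 96 were tested. For model against control 0 were higher and 1 was lower (1.04%), where 2.57% of all tested genes were higher and 2.5% lower. For SJQYD against model 1 was higher and 1 lower (2.08%), where 1.91% of all tested genes were higher and 0.838% lower. For SJQYD against control 5 were higher and 9 lower (14.6%), where 5.22% of all tested genes were higher and 5.9% lower. Their median log2 fold changes were -0.08, -0.02 and -0.10, those of all tested genes 0.03, -0.03 and 0.04.

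Car2, the cytosolic carbonic anhydrase that supplies bicarbonate and protons, was the only transport gene of these lists called for SJQYD against model. It stood at 10.6, 9.69, 7.09, 11.9 and 12.8 CPM in SJQYD 1 to 5, against 19.6, 19.4, 26.1, 17.2 and 15.9 CPM in model 1 to 5. Every SJQYD library lay below every model library, and the log2 fold change was -0.92 ± 0.19 (SE, edgeR adjusted p = 0.0135). The call was lost without control 2, model 3 and SJQYD 1 together (adjusted p = 0.0574) and with library totals (adjusted p = 0.229). Against control the log2 fold change of Car2 was -1.22 ± 0.19 (SE), also called (edgeR adjusted p = 0.000913), and not called with library totals (0.0798). Car12, a membrane carbonic anhydrase of secretory epithelia, rose against control by 0.65 ± 0.20 on the log2 scale (edgeR adjusted p = 0.0452), a call lost without 12 of the 15 libraries taken singly (0.0526 to 0.108). Ahcyl1, which encodes IRBIT, an activator of Cftr and of bicarbonate transporters, fell from 51.8 to 38.8 CPM in model against control (log2 fold change -0.42 ± 0.10 SE, edgeR adjusted p = 0.0279), and without control 1, 4 or 5 or model 1, 2 or 5 the call was lost (adjusted p from 0.0595 to 0.0796). The direction of Ahcyl1 turned with library totals (0.09), under which the median of all genes was 0.52.

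Among 18 tested regulators of the sodium channel, 1 rose and 1 fell for SJQYD against control and 0 were called in the other comparisons. Prss8, the protease prostasin that activates the channel, rose from 38.8 to 43.2 CPM in control to 49.8 to 77.0 CPM in SJQYD libraries, without overlap (log2 fold change 0.64 ± 0.15 SE, edgeR adjusted p = 0.0129). Model libraries, at 38.7 to 71.2 CPM, overlapped both. Oxsr1, a kinase that regulates chloride cotransporters, was lower by a log2 fold change of -0.56 ± 0.17, a call (edgeR adjusted p = 0.046) lost without 13 of the 15 libraries taken singly (0.0508 to 0.131). Furin, the convertase that cleaves the alpha and gamma subunits, did not pass (-1.05 ± 0.35 on the log2 scale, edgeR adjusted p = 0.067), though its groups did not overlap. Of 6 targets of corticosteroids, which raise sodium uptake in ducts, 1 rose for SJQYD against model and 2 for SJQYD against control. Tsc22d3 rose from 17.0 to 42.0 CPM against control (log2 fold change 1.31 ± 0.23 SE, edgeR adjusted p = 0.00278), and Per1, also a clock gene, rose from 20.9 CPM in the model to 91.7 CPM in the SJQYD group (2.13 ± 0.34 SE, edgeR adjusted p = 0.00443). Sgk1, the kinase that keeps the sodium channel at the membrane, stood at 11.7, 12.7 and 19.3 CPM in control, model and SJQYD (edgeR adjusted p = 0.448 for SJQYD against model). The labels give no hour of collection.

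Of 9 genes of the sodium pump and sodium-proton exchangers 0 were called for model against control or SJQYD against model. Atp1b1, the beta subunit of the pump that drives sodium uptake, was lower for SJQYD against control (log2 fold change -0.54 ± 0.16, edgeR adjusted p = 0.0445), a call lost without 10 of the 15 libraries taken singly (0.0501 to 0.128). Of 21 other tested proton pump subunits 1 rose and 3 fell for SJQYD against control, and 0 were called in the other comparisons. Atp6v0c, of the proton-conducting ring, stood at 40.9 to 55.2 CPM in control and 30.0 to 37.3 CPM in SJQYD libraries, without overlap (log2 fold change -0.58 ± 0.11 SE, edgeR adjusted p = 0.00298). Atp6v1h and Atp6ap2 fell by 0.50 ± 0.13 and 0.57 ± 0.17 (log2), and Tcirg1, the a3 subunit, rose by 0.53 ± 0.14 (edgeR adjusted p = 0.0251, 0.0375 and 0.0268). Left out singly, control 1, control 5, SJQYD 1 and SJQYD 5 ended the call of Atp6v1h (adjusted p up to 0.0635). Control 1, 3, 4 and 5 and SJQYD 2, 4 and 5 ended that of Atp6ap2 (up to 0.0888), and control 3, 4 and 5 and SJQYD 1 and 2 that of Tcirg1 (up to 0.0742). With library totals Atp6v0c, Atp6v1h, Atp6ap2, Atp1b1 and Oxsr1 turned direction (0.05 to 0.12) where the median of all genes was 0.63, so that relative to all genes they remained lower.

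Of 12 tested potassium channels and subunits and 13 tested ionocyte markers, 0 were called in any comparison (edgeR), and DESeq2 called 1, 0 and 1 of the potassium channel genes (Kcnk5, none and Kcnk1) and 0 of the ionocyte markers. Unadjusted p under 0.05 occurred for 3, 1 and 3 potassium channel genes and for 0, 0 and 3 ionocyte markers in the 3 comparisons in the order above. Of all tested genes 21.9%, 16.2% and 26.6% had such a p, and DESeq2 called 1779, 1072 and 2829 genes. Kcnk5 and Kcnk1, background potassium channels, stood at 8.18 and 38.3 CPM in control against 5.22 and 29.3 CPM in the model (edgeR adjusted p = 0.0677 and 0.217). In SJQYD libraries they stood at 5.81 and 26.7 CPM. DESeq2 called Kcnk1 for SJQYD against control (log2 fold change -0.52, DESeq2 adjusted p = 0.041). Bsnd, an accessory subunit of chloride channels found with ionocytes, stood at 5.58, 7.78 and 9.11 CPM in control, model and SJQYD. Atp6v0d2, the d2 subunit of the pump, stood at 12.4, 11.2 and 7.31 CPM in the same order, with an edgeR adjusted p of 0.154 against control. For SJQYD against control 9 of the 13 ionocyte markers had a positive log2 fold change and 4 a negative one, with a median of 0.20. The same counts, 9 and 4, held for model against control, with a median of 0.21. For SJQYD against model 7 were positive and 6 negative, with a median of 0.07. Of all tested genes 53.3%, 53.3% and 46.8% were positive in these comparisons, in that order, with medians of 0.04, 0.03 and -0.03. Of 9 duct markers 2 fell for SJQYD against control, Krt19 by 1.09 ± 0.25 and Elf5, a transcription factor of ducts, by 0.65 ± 0.18 (log2, edgeR adjusted p = 0.00987 and 0.0257). Elf5 was not called without control 1 or 3 or SJQYD 1 or 3 (adjusted p from 0.055 to 0.076), and neither Krt19 nor Elf5 was called with library totals.

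**Figure D5:**
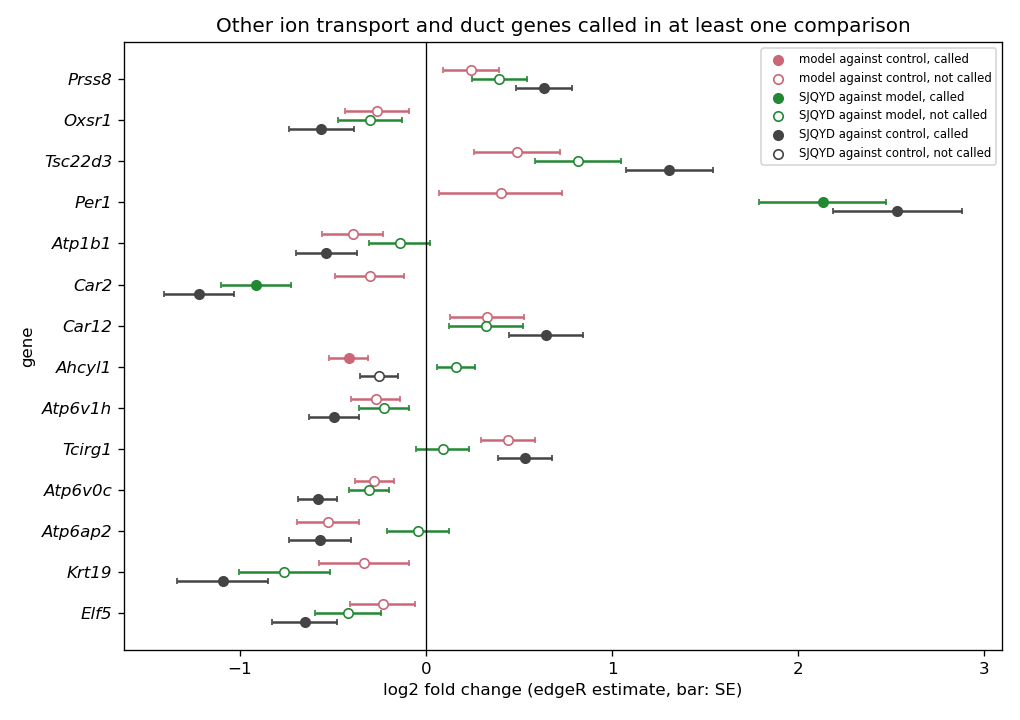
Points give the log2 fold change and its SE (horizontal axis) for genes of the lists called in at least 1 comparison (vertical axis), filled where called. Most calls lie in SJQYD against control, and Per1 and Car2 are also called for SJQYD against model.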

How the data were processed

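Polyadenylated RNA of 15 submandibular glands was sequenced as strand-specific paired reads of 150 bases with molecular identifiers, per the labels' protocols. Software named in the submitters' processing notes is HISAT2 2.0.4, StringTie 1.3.4d, cutadapt 1.9 and UMI-tools, with edgeR and DESeq2, with no roles given, and the build is mm9. Gene positions in the authors' table, however, match GRCm38 exactly in 29470 of 32385 cases. The authors deposited whole-number gene counts for 55401 genes and FPKM values for the 32479 with a count. Counts were analysed here with R 4.3.3 and edgeR 4.0.16: default filter by group, TMM factors, 1 robust quasi-likelihood fit of all 15 libraries with group as the only term, Benjamini-Hochberg adjustment over 18136 genes. SE is the log2 fold change over the root of F. FPKM served only to compare genes within a library. Log2 CPM for correlations had a pseudocount of 0.1 CPM for pairs of members, and a prior count of 2 for the genes most like each member. For members against summed markers the prior count of the member was also 2.

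The members and gene lists were chosen with earlier results of these data known. From each list up to 4 genes with the smallest p over the comparisons could be named, and for each member the 3 genes with the highest r. No library was a copy of another (chi-square at least 75.4 per gene). Alternatives were relative log expression factors, library totals, other filters, DESeq2 1.42.0, only the 2 groups compared, a replicate block, 3 libraries left out and each library left out; a fit with neither control 5 nor SJQYD 3 was added after the data were seen. The test was checked on simulated data, where it missed most genes changed 2-fold and a part of those changed 4-fold, so a gene that was not called is not shown to be unchanged. Floors cover counting error only. Some genes that this rule or the test selects are not reported here.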

Additional observations from a re-analysis of the deposited data

Results flagged for a closer look

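Within each group of 5 libraries a value was singled out where its gap to the nearest other library, over the range of the group, exceeded 0.71. Of 24 combinations of gene and group 3 did so, where chance singles out about 1 in 20. Cftr stood at 26.4 CPM in SJQYD 5, against 4.30 to 8.53 CPM in the other SJQYD libraries. Kcnma1 stood at 11.5 CPM in SJQYD 3, against 14.4 to 15.4 CPM in the other 4. Foxi1 stood at 4.79 CPM in model 4, against 8.55 to 9.24 CPM in the other model libraries.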

How the results depend on the processing

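Over 24 results (8 genes, 3 comparisons) with 24 alternative settings each, 576 combinations in all, 532 kept direction and side of the threshold, 39 reversed and 5 newly passed. Calls over all genes were 920 for model against control (MC), 498 for SJQYD against model (SM) and 2017 for SJQYD against control (SC), and over the surrounding genes 1, 2 and 14. With DESeq2 they were 1779, 1072 and 2829 over all genes and 6, 4 and 23 over surrounding genes, with 1 member (Cftr, SM). With library totals they were 1565, 43 and 4679, and 3, 1 and 27, with 1 member (Ascl3, MC), and 97.3%, 62.8% and 97.9% of calls were higher, against 50.7%, 69.5% and 47% with TMM factors. Surrounding genes called in MC were 0 without the filter and 0 with the 2 groups alone, where all genes called were 466. Without the 3 parotid-rich libraries the counts were 1507, 186 and 1964, and 6, 1 and 17, with 1 member (Kcnma1, MC). With neither control 5 nor SJQYD 3 they were 488, 391 and 1033, and 0, 2 and 7. With the replicate block they were 896, 401 and 1799, and 2, 3 and 12, with 0 members; only 4 of 15 libraries were closest to their own number. Leaving out single libraries gave 354 to 1799, 333 to 527 and 1240 to 2626 calls, 0 to 8, 2 to 3 and 7 to 20 surrounding genes, and 0 to 1, 0 and 0 to 1 members (Kcnma1 in MC without model 4, Atp6v1b1 in SC without SJQYD 5).

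Directions reversed with library totals in MC for Scnn1a (0.29), Scnn1b (0.29), Kcnma1 (0.0354), Atp6v1b1 (0.24) and Ahcyl1 (0.0874), and in SC for Scnn1a (0.39), Scnn1b (0.35), Kcnma1 (0.49), Foxi1 (0.51), Ascl3 (0.45), Oxsr1 (0.12), Atp1b1 (0.0771), Atp6v1h (0.11), Atp6v0c (0.0488) and Atp6ap2 (0.11). Each of these values lay below the median of all tested genes with library totals, 0.52 in MC and 0.63 in SC. Without the filter Scnn1b was at -0.001127 in SM, and without the parotid-rich libraries Scnn1g was at 0.30 in SM and Foxi1 at -0.0009353 in MC. With neither control 5 nor SJQYD 3, SC gave Scnn1a 0.0467, Scnn1b 0.21, Foxi1 0.31 and Ascl3 0.0894, SM gave Scnn1g 0.0895, and MC gave Scnn1a 0.003878 and Scnn1b 0.0309. Without single libraries the ranges that crossed 0 were, in SC, -0.25 to 0.0305 for Scnn1a, -0.37 to 0.0367 for Scnn1b, -0.11 to 0.92 for Cftr, -0.33 to 0.13 for Foxi1 and -0.34 to 0.11 for Ascl3, in SM, -0.14 to 0.12 for Scnn1a, -0.0889 to 0.17 for Scnn1b and -0.44 to 0.12 for Scnn1g, and in MC, -0.29 to 0.004153 for Scnn1a and -0.39 to 0.0312 for Scnn1b. The causes were not tested. Scnn1g, with as few as 59 counts, had among the widest intervals.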
